A study of Mus musculus with 9 samples.

Results

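The 10 genes described here belong to the circadian clock of the mouse hippocampus. They were 8 outputs of the E-box, the DNA element through which the clock activates its targets (Dbp, Tef, Ciart, Nr1d1, Nr1d2, Per1, Per2 and Per3), and 2 genes that cycle in the opposite phase (Arntl and Npas2). They were picked by name out of 47643 genes of the count matrix, after their levels in these same libraries were known. The values that chose them are the group differences themselves, so the levels and differences of these 10 genes are given as a description. How many of them passed the threshold used for all genes is printed as a count, with the share of all genes that did, and nothing is read from it. All 10 passed the filter on low counts in each of the 3 comparisons.

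Poly(A) RNA of the hippocampus was sequenced at 6 weeks of age in 3 groups of 3 libraries. MRL/mpj, which the labels call wild type and untreated, is the control strain. MRL/lpr carries the lpr mutation of Fas, a death receptor gene, and is a model of lupus, and its 3 libraries are labelled untreated although the series title speaks of PBS. MRL/lpr+MSC is the same genotype treated with mesenchymal stem cells, a group for which the sources give no dose or schedule. The labels give the strain of every library as C57BL/6, whereas the study's text gives the MRL strains, and the lpr mutation is present in every cell of the animal. Gene values published under the heading MRL/lpr track, up to a constant factor, the libraries that carry the MRL/lpr+MSC label and not those that carry the MRL/lpr label. Both groups are therefore named throughout by the label of their libraries, and each is compared with MRL/mpj. The mice were kept on a light-dark cycle, and the hour at which each hippocampus was taken is not given in the sources used here. A difference in that hour between groups and a difference of the clock itself cannot be told apart in these libraries. Since the labels and the study's text disagree on the strain, a difference in genetic background beyond Fas cannot be told apart from either. The study's text describes the columns of its hippocampal data for MRL/mpj and MRL/lpr as single mice. Given the published heading above, it is not settled whether this covers the libraries labelled MRL/lpr or those labelled MRL/lpr+MSC. P-values set the difference between groups against the spread between these libraries.

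The mammalian clock is a loop of transcription factors that almost every cell runs. ARNTL (also BMAL1), paired with CLOCK or NPAS2, binds E-boxes and switches on the Per and Cry genes, the nuclear receptors Nr1d1 and Nr1d2 and output factors such as Dbp. PER and CRY proteins then inhibit ARNTL, and the NR1D proteins repress Arntl and Npas2 through ROR elements, so that Arntl and Npas2 peak when the E-box outputs are low. In the hippocampus the loop runs under the lead of the suprachiasmatic nucleus and of hormones such as glucocorticoids.

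Libraries held between 19475804 and 26912031 counts. Levels are given as CPM, each gene's share of the library's counts rescaled to a common total, after scaling by the trimmed mean of M-values (TMM), and 3 counts, the floor used here, corresponded to between 0.105 and 0.163 CPM. The lowest count of any of the 10 genes in any library was 90, for Ciart. Fas itself had 1.997, 1.85 and 1.63 CPM in MRL/mpj. It had 2.27, 1.33 and 1.77 CPM in MRL/lpr and 0.985, 1.11 and 1.81 in MRL/lpr+MSC, so its level overlapped between groups and does not check the labels. All 6 markers of hippocampal neurons were detected in every group, with a summed level of 2541 to 2830 CPM in the MRL/mpj libraries, 1103 to 2322 in MRL/lpr and 1487 to 2615 in MRL/lpr+MSC. The 6 markers of striatal neurons summed to 69.0 to 78.4, 119 to 142 and 81.1 to 177 CPM in the same order, and the 6 markers of choroid plexus to 165 to 703, 99.0 to 9630 and 99.0 to 4833 CPM. None of these markers was at 0 in any group, and the part of tissue composition in the results below was not tested. In bulk tissue, fewer cells of a type and less RNA per cell cannot be told apart.

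Of the 10 genes, 9 have a promoter window in RefSeq (GRCm38.p6), 250 bases before to 50 bases after a start, and 12 windows were read in all. Per2 has no window. Both strands were searched for the E-box CACGTG, the D-box TTATGTAA or TTACGTAA (the site of the DBP, TEF and HLF factors), the ROR element core TAGGTCA or TGGGTCA, the CRE TGACGTCA and its first 5 letters, TGACG, which overlap it. The E-box was in 7.15% of all 32851 windows, the D-box in 1.06%, the ROR core in 6.45%, the CRE in 1.79% and TGACG in 20.8%. The stretches below carry the matches upstream of a start that lie outside annotated exons. The E-box is shown as the element by which the outputs were named, and the D-box as the site of the DBP and TEF factors. The matched letters are in capitals.
Ciart, chr3:95882252-95882384, minus strand: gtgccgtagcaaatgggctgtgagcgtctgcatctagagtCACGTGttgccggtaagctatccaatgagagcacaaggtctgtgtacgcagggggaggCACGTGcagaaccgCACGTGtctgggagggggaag
Per1, chr11:69098743-69098828, plus strand: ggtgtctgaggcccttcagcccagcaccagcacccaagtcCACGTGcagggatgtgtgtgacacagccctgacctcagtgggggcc
Tef, chr15:81811236-81811321, plus strand: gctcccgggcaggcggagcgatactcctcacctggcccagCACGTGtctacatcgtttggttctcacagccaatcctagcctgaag
Per3, chr4:151044776-151044910, minus strand: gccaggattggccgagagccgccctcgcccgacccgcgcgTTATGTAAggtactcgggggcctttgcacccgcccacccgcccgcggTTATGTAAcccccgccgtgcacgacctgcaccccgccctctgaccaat
Ciart held 3 E-boxes, at 116, 58 and 44 bases before its start, and 0.0883% of all windows held 3 or more. Per1 held an E-box at 166 bases and Tef at 138 bases before the start of its second window. The first window of Tef held an E-box too, at 127 bases before the start, which is not printed because it lies in an annotated exon. Per3 held the D-box 2 times, at 205 and 158 bases before the start, and no E-box. The second window of Arntl held the ROR core TAGGTCA after the start. No window of Dbp, Nr1d1, Nr1d2 or Npas2 held any of these letters, which says only that they are not in these stretches. TGACG was in both windows of Per1.

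The first question was how the clock genes stood in MRL/lpr against MRL/mpj, and the same was asked of MRL/lpr+MSC against MRL/mpj. These comparisons share the 3 MRL/mpj libraries. All 8 E-box outputs had a lower mean in both MRL/lpr groups than in MRL/mpj, led by Ciart and Dbp, and 7 of the 8 had no library of either MRL/lpr group within the MRL/mpj range. Arntl lay above the MRL/mpj range in all libraries of both groups, and Npas2 overlapped it. Over all genes tested, 18.6% did not overlap on the lower side and 19.4% on the higher side in MRL/lpr, and 14.4% and 15.2% in MRL/lpr+MSC. The genes were picked for these differences, so nothing is read from their count. The median log2 fold change of the 8 outputs was -0.61 in MRL/lpr and -0.56 in MRL/lpr+MSC, beside medians over all genes tested of 0.02 and 0.01. The plot of the 10 genes by library shows each value.

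**Figure D1:**
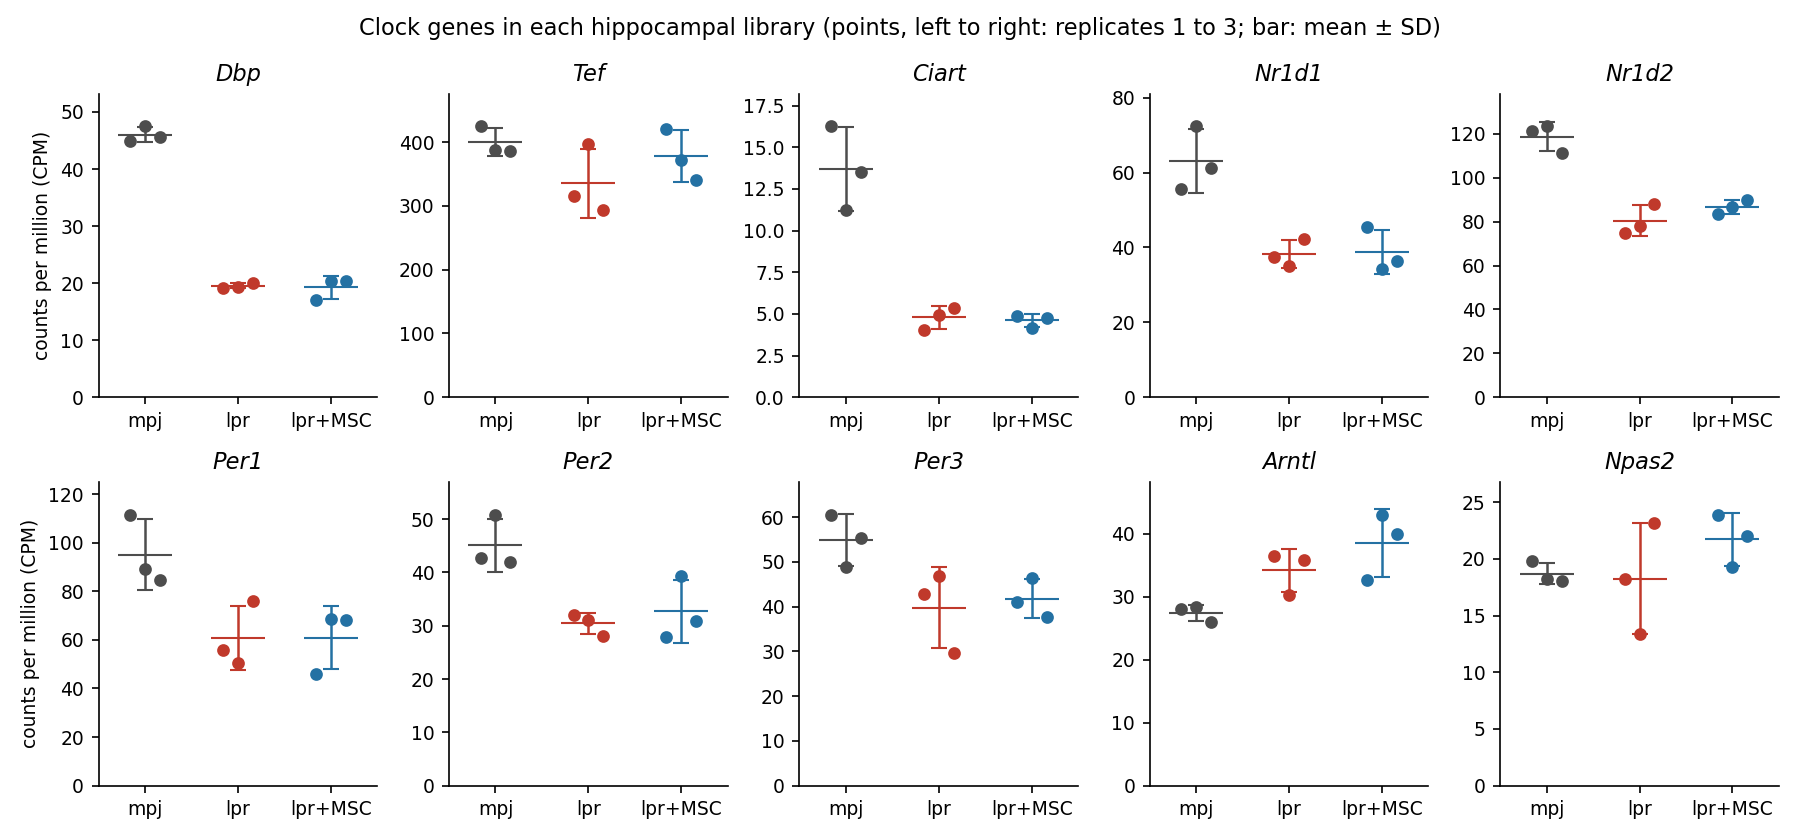
Level of each clock gene (CPM, linear axes from 0) in the 9 hippocampal libraries, with the mean and SD of each group of 3. The MRL/lpr and MRL/lpr+MSC points lie below all MRL/mpj points for Dbp, Ciart, Nr1d1, Nr1d2, Per1, Per2 and Per3 and above them for Arntl. For Tef and Npas2 the groups overlap, with Tef points within and below the MRL/mpj range and Npas2 points within, below and above it.

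Dbp and Tef encode PAR bZIP transcription factors, which act at D-boxes and pass the rhythm on to metabolic and neuronal genes. Dbp (ENSMUSG00000059824, GRCm38 chr7:45705088-45710203, plus strand) had 45.0, 47.5 and 45.6 CPM in the MRL/mpj libraries, 19.2, 19.3 and 20.1 in MRL/lpr, and 17.0, 20.3 and 20.4 in MRL/lpr+MSC. The highest of the 6 libraries of the MRL/lpr genotype had less than the lowest MRL/mpj library by a wide margin, and the libraries within each group lay close together. Its log2 fold change was -1.23 (SE 0.07) in MRL/lpr and -1.25 (SE 0.09) in MRL/lpr+MSC, 0.425 and 0.419 times the MRL/mpj level. Its spread within groups was among the smallest of the 10 genes, with an SD of 0.09 on the log2 scale. Exons of Dbp share 539 bases with Sphk2 on the other strand, and counts without strand cannot assign reads of that stretch. Sphk2 had 29.9 to 35.5 CPM over the 9 libraries, with log2 differences from MRL/mpj of 0.08 and 0.06. Exons of Tef share 193 bases with Gm17597 and those of Arntl 33 bases with Gm45355, both on the other strand.

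Tef (ENSMUSG00000022389, chr15:81802421-81826863, plus strand) had 425, 388 and 387 CPM in the MRL/mpj libraries, 316, 397 and 294 in MRL/lpr, and 422, 373 and 340.4 in MRL/lpr+MSC. It was the only output whose groups overlapped in both comparisons, and its log2 fold changes were -0.26 (95% interval -0.54 to 0.02) and -0.08 (-0.30 to 0.14). Within both MRL/lpr groups the order of the libraries by Tef was their order by the summed hippocampal neuron markers: 2322, 1728 and 1103 CPM of markers in MRL/lpr replicates 2, 1 and 3, and 2615, 1876 and 1487 in MRL/lpr+MSC replicates 1, 2 and 3. In MRL/mpj the library with most marker RNA (2830 CPM, replicate 3) had the least Tef.

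Ciart, Per1, Per2 and Per3 encode repressors that act on the ARNTL complex, and CIART (also CHRONO) binds it directly. Ciart (ENSMUSG00000038550, chr3:95878503-95882251, minus strand), the gene with 3 E-boxes above, had 16.3, 11.3 and 13.5 CPM in the MRL/mpj libraries, 4.05, 4.95 and 5.37 in MRL/lpr, and 4.88, 4.18 and 4.77 in MRL/lpr+MSC. The highest library of the MRL/lpr genotype lay at 5.37 CPM and the lowest MRL/mpj library at 11.3. Its log2 fold changes, -1.501 (SE 0.20) and -1.54 (SE 0.19), were the largest of the 10 genes in both comparisons, 0.353 and 0.344 times the MRL/mpj level. The 95% intervals of Ciart (-1.98 to -1.03 in MRL/lpr) and Dbp (-1.40 to -1.07) overlapped, so their order is not resolved.

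Per1 (ENSMUSG00000020893, chr11:69095217-69109960, plus strand), the most abundant Per gene, had 112, 89.1 and 84.7 CPM in the MRL/mpj libraries, 55.9, 50.6 and 75.8 in MRL/lpr, and 45.8, 68.5 and 68.3 in MRL/lpr+MSC. Per1 is also an immediate target of neuronal activity and of glucocorticoids, and its SD within groups, 0.29 on the log2 scale, was the widest of the 10. MRL/lpr replicate 3, at 75.8 CPM, came nearest to the MRL/mpj range. The log2 fold changes of Per1 were -0.66 (SE 0.17) and -0.65 (SE 0.18).

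Per2 (ENSMUSG00000055866, chr1:91415982-91459324, minus strand) had 42.7, 50.8 and 41.9 CPM in the MRL/mpj libraries, 32.0, 31.1 and 28.1 in MRL/lpr, and 28.0, 39.3 and 30.8 in MRL/lpr+MSC. MRL/lpr+MSC replicate 2 lay just under the lowest MRL/mpj library. Its log2 fold changes were -0.56 (SE 0.10) and -0.47 (SE 0.14). Per3 (ENSMUSG00000028957, chr4:151003652-151044665, minus strand), the gene with the pair of D-boxes, had 60.6, 48.9 and 55.3 CPM in the MRL/mpj libraries, 42.8, 46.9 and 29.5 in MRL/lpr, and 41.0, 46.4 and 37.7 in MRL/lpr+MSC. The groups did not overlap, but MRL/lpr replicate 2 (46.9 CPM) and MRL/mpj replicate 2 (48.9 CPM) were close. Its log2 fold changes, -0.48 (SE 0.18) and -0.39 (SE 0.11), were the smallest among the outputs other than Tef.

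Nr1d1 and Nr1d2 encode REV-ERB alpha and REV-ERB beta, the heme-binding nuclear receptors that repress Arntl. Nr1d1 (ENSMUSG00000020889, chr11:98767932-98775333, minus strand) had 55.7, 72.5 and 61.3 CPM in the MRL/mpj libraries, 37.4, 34.9 and 42.4 in MRL/lpr, and 45.5, 34.4 and 36.4 in MRL/lpr+MSC. The highest of the 6 libraries of the MRL/lpr genotype, MRL/lpr+MSC replicate 1, was below the lowest MRL/mpj library. Its log2 fold changes were -0.72 (SE 0.12) and -0.71 (SE 0.14). Its exons share 263 bases with Thra, the thyroid hormone receptor gene on the other strand, whose level was higher than that of Nr1d1, with 564 to 864 CPM over the 9 libraries. The log2 differences of Thra from MRL/mpj were -0.19 and 0.01, with overlapping groups.

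Nr1d2 (ENSMUSG00000021775, chr14:18204054-18239127, minus strand) had 121, 124 and 111 CPM in the MRL/mpj libraries, 74.7, 78.1 and 88.3 in MRL/lpr, and 83.7, 86.7 and 90.1 in MRL/lpr+MSC. Libraries of a group lay close together, with an SD of 0.09 on the log2 scale, and every library of the MRL/lpr genotype was below the lowest MRL/mpj library. Fitted log2 fold changes were -0.56 (SE 0.08) and -0.45 (SE 0.07).

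Arntl (ENSMUSG00000055116, chr7:113207465-113314126, plus strand), the activator of the loop, had 28.1, 28.3 and 25.9 CPM in the MRL/mpj libraries, 36.4, 30.2 and 35.8 in MRL/lpr, and 32.6, 43.0 and 39.995 in MRL/lpr+MSC. All 6 libraries of the MRL/lpr genotype were above all 3 MRL/mpj libraries, MRL/lpr replicate 2 by the least. Fitted log2 fold changes were 0.32 (95% interval 0.08 to 0.55) and 0.49 (0.21 to 0.77). Npas2 (ENSMUSG00000026077, chr1:39193731-39363236, plus strand), a partner of ARNTL that can stand in for CLOCK in the forebrain, had 19.8, 18.2 and 18.1 CPM in the MRL/mpj libraries, 18.2, 13.4 and 23.2 in MRL/lpr, and 23.9, 19.3 and 22.01 in MRL/lpr+MSC. The MRL/lpr libraries lay on both sides of the MRL/mpj range, and the log2 fold changes were -0.06 (-0.52 to 0.40) and 0.21 (-0.03 to 0.46). Without MRL/lpr replicate 2, which had the least Npas2 of all libraries, its log2 fold change in MRL/lpr was 0.13. The pair named as the opposite phase thus did not show a common difference in MRL/lpr.

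The ratio of an output to Arntl within a library does not depend on how libraries are scaled to each other. On the FPKM scale, which also divides by transcript length (from the deposited tables), the Dbp to Arntl ratio was 2.77, 2.91 and 3.04 in MRL/mpj, 0.911, 1.11 and 0.971 in MRL/lpr, and 0.901, 0.818 and 0.883 in MRL/lpr+MSC. Dbp was thus the more abundant of the pair in MRL/mpj, and the ratio was near 1 in the other groups. The Nr1d1 to Arntl ratio was 2.17 ± 0.278, 1.06 ± 0.0796 and 0.977 ± 0.300 (mean ± SD, n = 3 libraries each) in the same order.

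**Figure D2:**
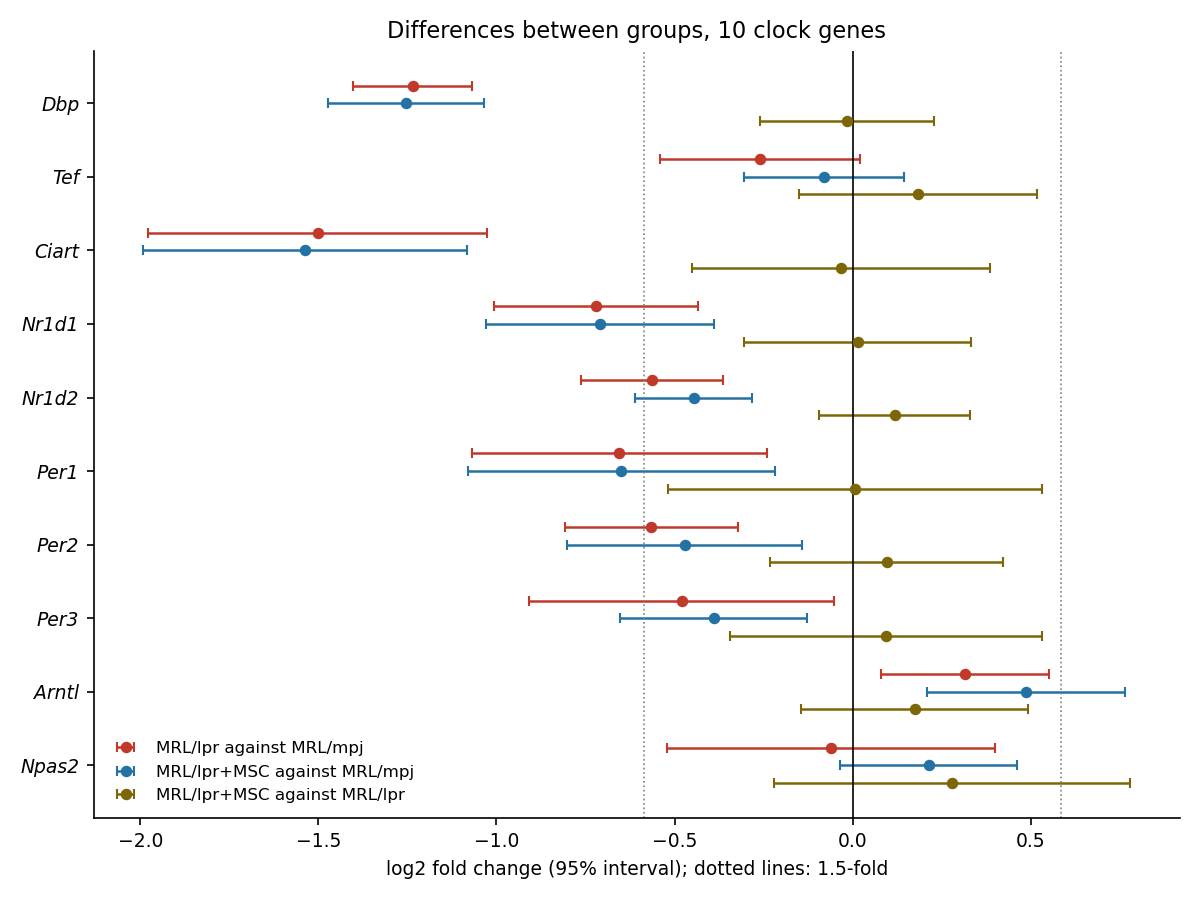
Log2 fold change (horizontal axis) of each clock gene with its 95% interval in the 3 comparisons of 3 against 3 libraries, fitted with limma voom. Dbp (-1.23 and -1.25) and Ciart (-1.501 and -1.54) lie furthest to the left in both comparisons with MRL/mpj, Arntl lies to the right, and all intervals of MRL/lpr+MSC against MRL/lpr include 0.

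Differential expression was called with limma voom where the Benjamini-Hochberg adjusted p was under 0.05 and the change at least 1.5-fold. In MRL/lpr against MRL/mpj, 969 of 16697 genes tested passed (5.80%), 400 lower (2.40%) and 569 higher (3.41%). In MRL/lpr+MSC against MRL/mpj, 553 of 16196 passed (3.41%), 243 lower (1.5%) and 310 higher (1.91%). The same 3 of the 10 clock genes, Dbp, Ciart and Nr1d1, passed in both comparisons, all lower. Since these contrasts chose the genes, nothing is read from those counts. Just outside the threshold stood Per2 and Nr1d2 in MRL/lpr, at 0.676 and 0.677 times the MRL/mpj level, and just inside it Nr1d1, at 0.607 times.

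Single libraries moved these counts. With each library left out in turn, the count in MRL/lpr against MRL/mpj was 253, 260 and 165 genes without MRL/mpj replicates 1, 2 and 3, and 421, 1693 and 1509 without MRL/lpr replicates 1, 2 and 3. In MRL/lpr+MSC against MRL/mpj the count was 193, 201 and 197 without each MRL/mpj replicate and 1512, 358 and 277 without MRL/lpr+MSC replicates 1, 2 and 3. The count among the 10 clock genes moved from 1 without MRL/mpj replicate 3 to 5 when MRL/lpr replicate 3 was dropped in MRL/lpr, and from 2 to 4 in MRL/lpr+MSC. Dbp passed in all 12 alternative fits of each comparison. Ciart passed in 11 of 12 in MRL/lpr, lost without MRL/mpj replicate 3, and in all 12 in MRL/lpr+MSC. Nr1d1 passed in 9 of 12 in MRL/lpr, lost without MRL/mpj replicate 2 or 3 or MRL/lpr replicate 1. In MRL/lpr+MSC Nr1d1 passed in 6 of 12.

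The third comparison asked whether the treatment moved the clock genes, MRL/lpr+MSC against MRL/lpr. All 10 genes overlapped between these groups, and their log2 fold changes ran from -0.03 (Ciart) to 0.28 (Npas2), with a median of 0.05 for the 8 outputs. The 95% interval of Dbp was -0.26 to 0.23, that of Nr1d2 -0.09 to 0.33 and that of Arntl -0.14 to 0.49, while those of Per1 (-0.52 to 0.53) and Npas2 (-0.22 to 0.78) were the widest. Of 16758 genes tested, 0 were called (0%) by limma voom and 0 by limma-trend, with 648 and 684 at an unadjusted p under 0.05. Groups that did not overlap in either direction made up 9.98% of the genes tested, and none of the 10 clock genes was among them.

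Summed over genes, the shift was alike from library to library. Relative to the MRL/mpj mean of each gene, the mean of the 8 outputs on the log2 scale was 0.06, -0.01 and -0.05 in the MRL/mpj libraries, -0.79, -0.73 and -0.73 in MRL/lpr and -0.74, -0.65 and -0.70 in MRL/lpr+MSC. The mean of Arntl and Npas2 was more scattered, at 0.19, -0.17 and 0.35 in MRL/lpr against 0.30, 0.35 and 0.39 in MRL/lpr+MSC. MRL/lpr replicate 2, the library at -0.17, also had the most choroid plexus RNA, with a summed marker level of 9630 CPM. MRL/lpr+MSC replicate 2, which had the next most (4833 CPM), was at 0.35. A link between the pair and choroid plexus RNA was not tested.

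**Figure D3:**
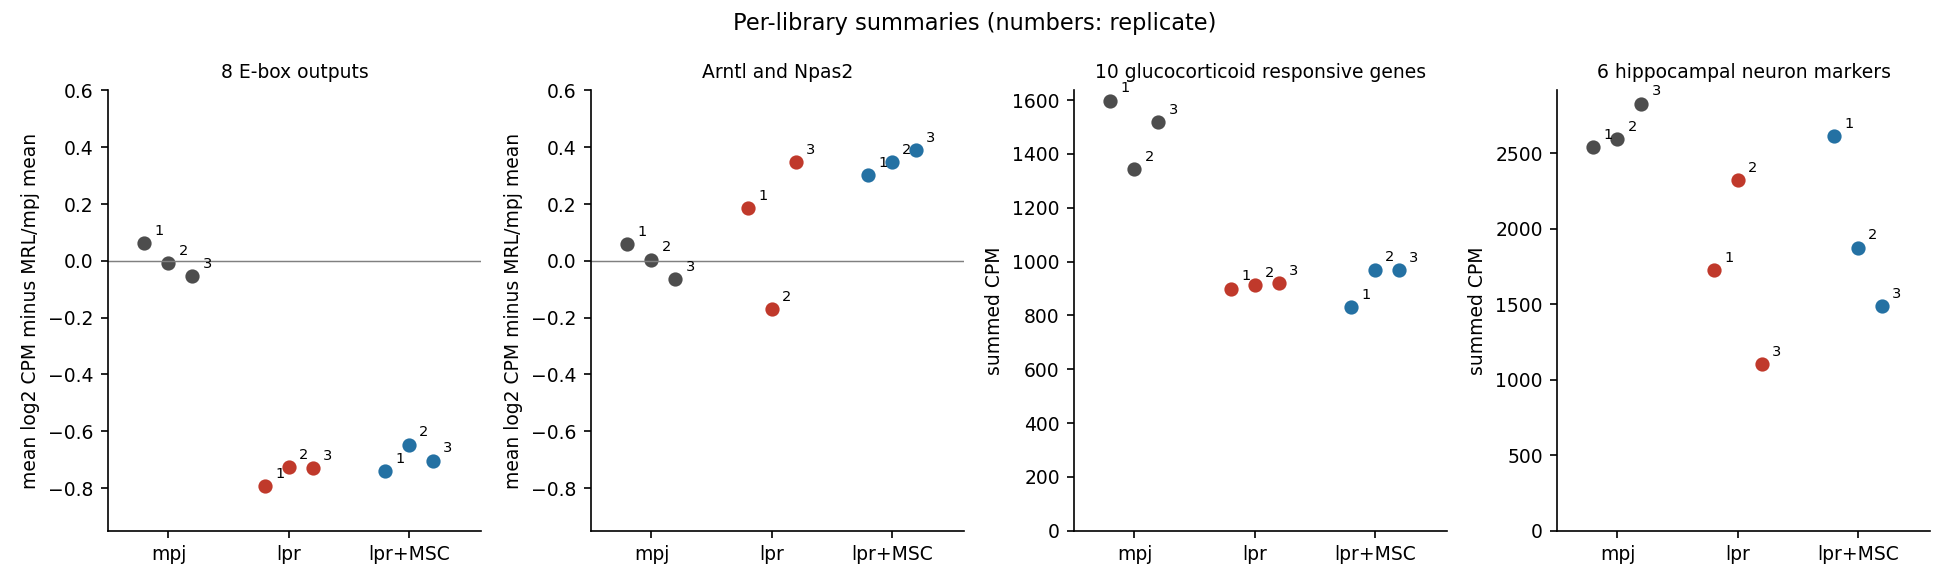
Per-library values, with replicate numbers beside the points: the mean log2 CPM of the 8 E-box outputs and of Arntl and Npas2 relative to MRL/mpj, and the summed CPM of 10 glucocorticoid responsive genes and of 6 hippocampal neuron markers (these axes start at 0). The outputs and the glucocorticoid responsive genes lie below all MRL/mpj libraries in the 6 libraries of the MRL/lpr genotype, while the neuron markers spread from 1103 to 2615 CPM among them.

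Levels of different genes can be compared only per length, so the order is given in FPKM. Over the 9 libraries, Tef had the highest mean (47.2 FPKM), followed by Nr1d2 (19.03), Dbp (16.8), Nr1d1 (15.2), Per1 (12.8), Arntl (11.5), Per2 (6.15), Per3 (4.72), Npas2 (4.08) and Ciart (3.40). The range of Tef (37.3 to 54.0 FPKM) lay above that of Nr1d2, and the range of Arntl (9.01 to 14.7) above that of Per2 (4.80 to 8.66). All other neighbours in this order overlapped in range. Dbp ranked 2 in MRL/mpj, at 27.5 ± 0.742 FPKM, and 5 in both other groups, at 11.6 ± 0.328 and 11.5 ± 1.09 (SD, n = 3 each). Ciart ranked 8 in MRL/mpj (6.06 ± 1.11 FPKM), above Per3 and Npas2, and 10 in both other groups (2.11 ± 0.300 and 2.04 ± 0.183). Its place at the end of the pooled order thus rests on the libraries of the MRL/lpr and MRL/lpr+MSC groups. Arntl ranked 6 in MRL/mpj (9.46 ± 0.393 FPKM), 4 in MRL/lpr (11.7 ± 1.2) and 3 in MRL/lpr+MSC (13.3 ± 1.74).

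**Figure D4:**
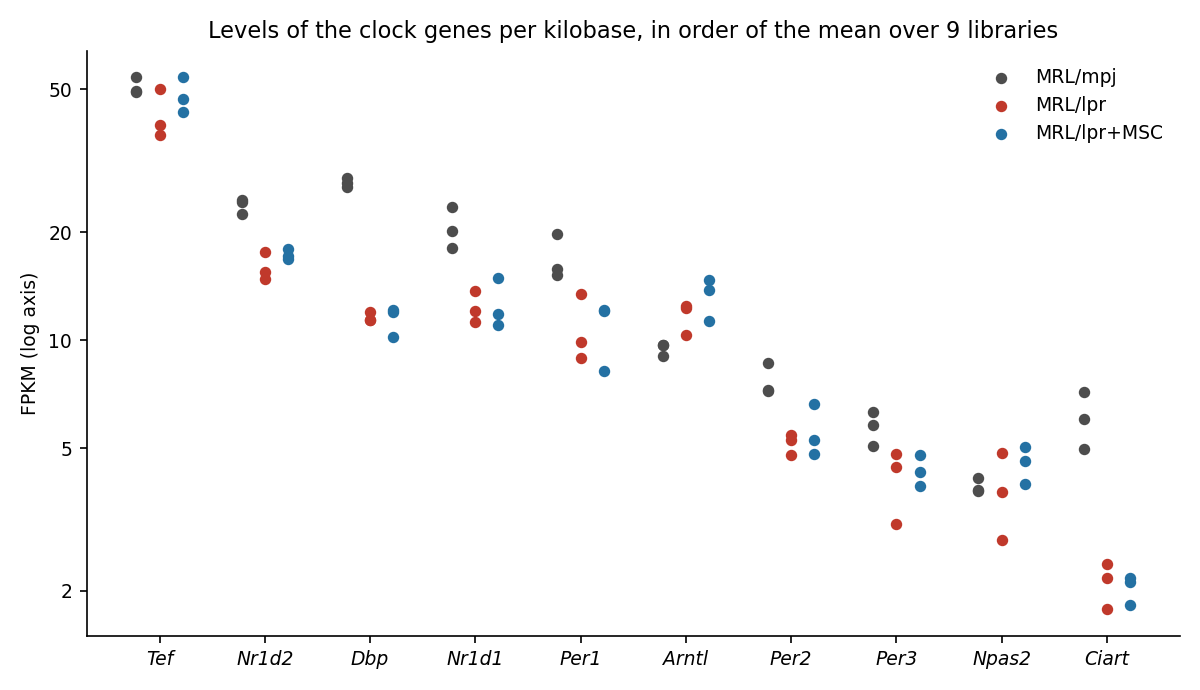
FPKM (log axis) of the 10 clock genes in every library, ordered by the mean over 9 libraries and coloured by group. Tef stands alone at the top, and Dbp and Ciart show the widest gap between MRL/mpj and the other groups.

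The rest of the pathway was read from a list of 17 further clock genes, all of which were tested. This list too was chosen with earlier results of these data known, so nothing is read from its counts. In MRL/lpr against MRL/mpj, 2 of the 17 fell (Bhlhe40 and Hlf) and 1 rose (Nfil3), beside 2.40% and 3.41% of all genes tested, and the median log2 fold change of the list was -0.14. In MRL/lpr+MSC, 1 fell (Bhlhe40) and none rose, beside 1.5% and 1.91% of all genes, with a median of 0.02. None passed in MRL/lpr+MSC against MRL/lpr. There 1 of the 17 lay lower without overlap (Nfil3) and 4 higher (Clock, Rora, Hlf and Csnk1e). Over all genes tested, 9.98% did not overlap in either direction.

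Bhlhe40 (DEC1), a repressor that competes with the ARNTL complex for E-boxes and is itself an E-box output, had 118, 122 and 121 CPM in the MRL/mpj libraries, 59.9, 61.4 and 65.1 in MRL/lpr, and 54.9, 73.2 and 62.0 in MRL/lpr+MSC. It fell by 0.95 on the log2 scale in MRL/lpr (SE 0.06, adjusted p = 0.000877, limma voom) and by 0.93 in MRL/lpr+MSC (SE 0.11, adjusted p = 0.00611, limma voom), and passed in all 12 alternative fits of each comparison. Its paralog Bhlhe41 had 46.8 ± 1.30, 34.2 ± 4.49 and 31.7 ± 6.39 CPM (SD, n = 3 each), with log2 differences of -0.46 (adjusted p = 0.0433, limma voom, under 1.5-fold) and -0.57 (adjusted p = 0.0706, limma voom).

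Hlf, the third PAR bZIP factor beside Dbp and Tef, had 139, 135 and 120.1 CPM in the MRL/mpj libraries, 67.4, 76.7 and 70.5 in MRL/lpr, and 132, 104 and 80.5 in MRL/lpr+MSC. It fell by 0.88 on the log2 scale in MRL/lpr (SE 0.08, adjusted p = 0.00371, limma voom), in all 12 alternative fits. The log2 difference in MRL/lpr+MSC was -0.34 (SE 0.17, adjusted p = 0.290), and MRL/lpr+MSC replicate 1 lay within the MRL/mpj range. The order of the MRL/lpr+MSC libraries by Hlf was that of their hippocampal neuron markers, whereas in MRL/lpr the orders differed and in MRL/mpj they were opposite. Between MRL/lpr+MSC and MRL/lpr, Hlf differed by 0.54 with no overlap of the groups, and did not pass (adjusted p = 0.921, limma voom; unadjusted p = 0.0207). The 3 PAR bZIP genes therefore had log2 differences of -1.23, -0.26 and -0.88 in MRL/lpr, and of -1.25, -0.08 and -0.34 in MRL/lpr+MSC, for Dbp, Tef and Hlf.

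Nfil3, a bZIP repressor that binds the same D-boxes as DBP and is itself repressed by the NR1D receptors, had 9.48, 8.42 and 8.27 CPM in the MRL/mpj libraries, 13.6, 15.0 and 12.1 in MRL/lpr, and 11.6, 8.82 and 7.91 in MRL/lpr+MSC. It rose by 0.63 on the log2 scale in MRL/lpr (SE 0.13, adjusted p = 0.0338, limma voom). The call was lost when any MRL/mpj library or MRL/lpr replicate 1 or 2 was left out, with log2 fold changes between 0.56 and 0.70. In MRL/lpr+MSC its log2 difference was 0.09 (adjusted p = 0.794, limma voom), and MRL/lpr+MSC against MRL/lpr gave -0.54 without overlap (adjusted p = 0.921). The ROR core was present in the promoter window of Nfil3, as in 6.45% of all windows, and nothing is read from it. Of the other genes on the list, Cry1 and Bhlhe41 held an E-box (7.15% of all windows did) and Hlf a CRE (1.79%).

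Rora and Rorb encode receptors that activate through ROR elements. Their levels were 33.3 to 52.7 and 14.8 to 22.01 CPM over the libraries, and their log2 differences in MRL/lpr, -0.28 and -0.17, did not pass. Between MRL/lpr+MSC and MRL/lpr, Rora differed by 0.38 without overlap and did not pass (adjusted p = 0.921, limma voom).

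Of the core factors, Clock, the usual partner of ARNTL, had 108 ± 1.85 CPM in the MRL/mpj libraries, 113 ± 3.26 in MRL/lpr and 119 ± 3.57 in MRL/lpr+MSC (SD, n = 3 each), with log2 differences from MRL/mpj of 0.08 and 0.16 that did not pass. Cry1 and Cry2, the partners of the PER repressors, differed in sign: 0.26 for Cry1 and -0.23 for Cry2 in MRL/lpr, and 0.28 and -0.18 in MRL/lpr+MSC, none of which passed. Cry1, which held an E-box in its promoter window, lay above MRL/mpj in MRL/lpr and on both sides of it in MRL/lpr+MSC, at 15.3, 15.3 and 15.5 CPM in the MRL/mpj libraries, 19.1, 16.2 and 19.7 in MRL/lpr, and 12.7, 21.6 and 22.7 in MRL/lpr+MSC. The remaining genes were Arntl2, Csnk1d, Csnk1e, Fbxl21, Btrc, Usp2, Wee1 and Nampt, kinases, ubiquitin ligases and outputs of the clock among them. None of these 8 passed in any comparison, with log2 differences from -0.40 (Usp2) to 0.57 (Fbxl21) in MRL/lpr and from -0.51 (Usp2) to 0.68 (Fbxl21) in MRL/lpr+MSC.

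**Figure D5:**
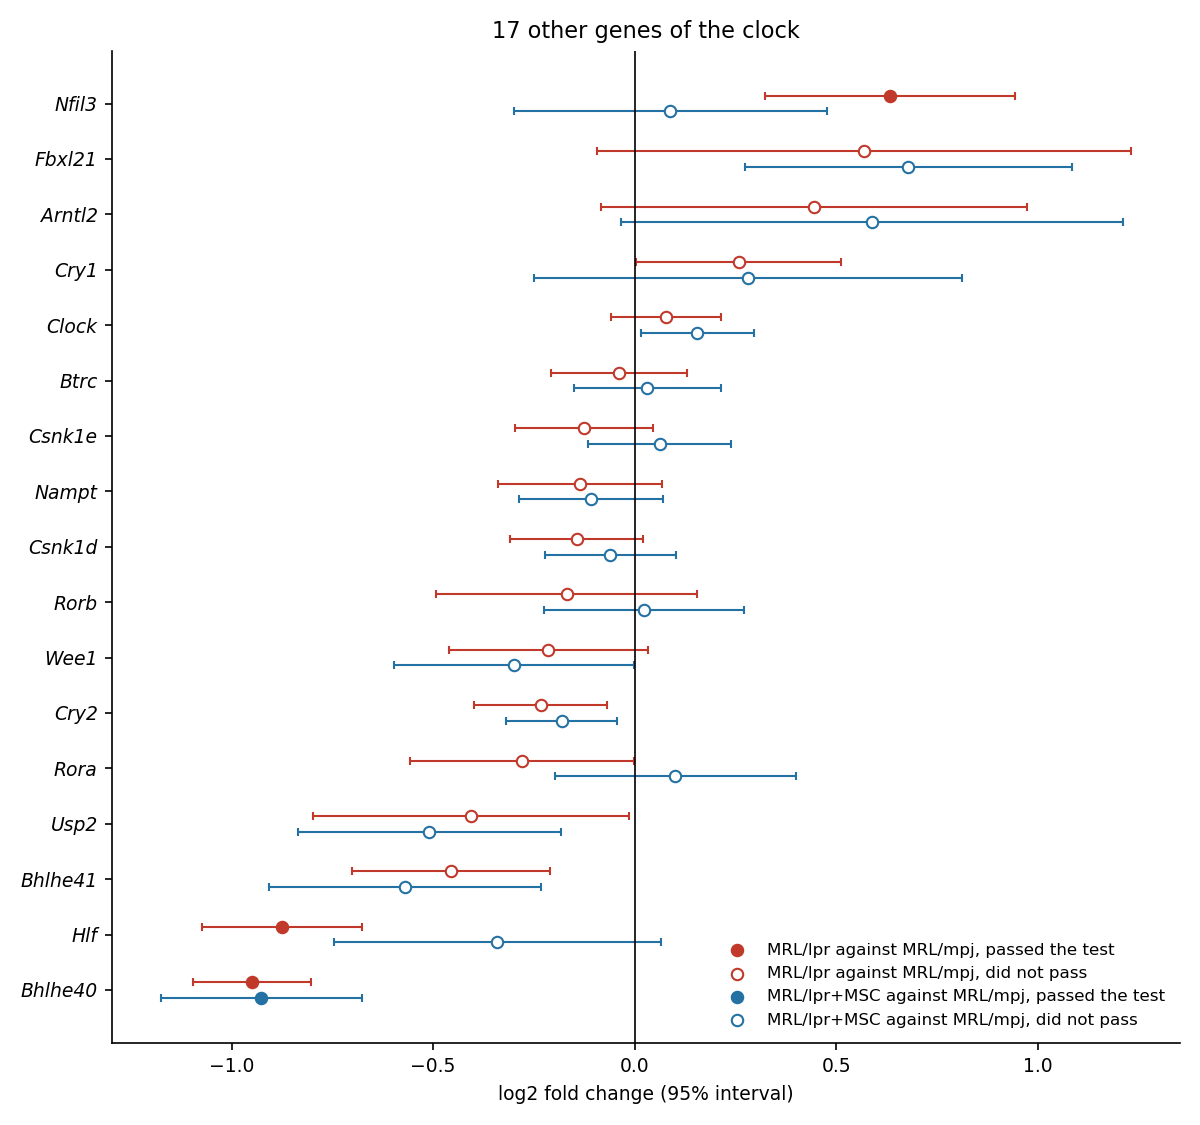
Log2 fold change with 95% interval of 17 clock genes outside the group of 10, in MRL/lpr (red) and MRL/lpr+MSC (blue) against MRL/mpj. Filled points passed the test: Bhlhe40 and Hlf on the lower side, Nfil3 on the higher side in MRL/lpr, and Bhlhe40 alone in MRL/lpr+MSC.

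Other inputs that can move clock genes were read from lists of genes for glucocorticoids, neuronal activity and temperature. These lists were chosen with earlier results of these data known, so nothing is read from their counts. All 10 glucocorticoid responsive genes had a lower mean in both comparisons, with a median log2 fold change of -0.69 in MRL/lpr and -0.78 in MRL/lpr+MSC. In MRL/lpr 4 of the 10 fell, beside 2.40% of all genes: Tsc22d3 (-1.32, adjusted p = 0.0172, limma voom), Zbtb16, Klf9 and Errfi1, named after their values were seen. The smallest difference was that of Sult1a1 (-0.25). The same 4 and Fkbp5 and Mt2 fell in MRL/lpr+MSC, 6 in all, beside 1.5% of all genes. With a library left out, 1 to 6 of them passed in MRL/lpr and 1 to 5 in MRL/lpr+MSC. In MRL/lpr the count was 1 without MRL/mpj replicate 1, MRL/mpj replicate 3 or MRL/lpr replicate 1, and 6 when MRL/lpr replicate 2 was dropped. In MRL/lpr+MSC it was 1 without MRL/mpj replicate 1 or 3, 2 without MRL/lpr+MSC replicate 2 and 3 without MRL/mpj replicate 2. The summed level of the list was 1343 to 1597 CPM in the MRL/mpj libraries, 899.7 to 920 in MRL/lpr and 829.5 to 970 in MRL/lpr+MSC. Like the mean of the E-box outputs, it was below all MRL/mpj libraries in both groups. The same held for the summed microglia markers, at 184 to 198, 138 to 177 and 141 to 163 CPM in that order. It also held for the 17 other clock genes, at 1127 to 1175, 929 to 988 and 1000 to 1061 CPM. The summed markers of striatal neurons and of endothelium lay above all MRL/mpj libraries in both groups. The part of the glucocorticoid list in the difference of the outputs was not tested.

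Of 12 immediate early genes, which report neuronal activity and CRE-driven transcription and include paths that act on Per1, none passed by limma voom in either comparison, and no gene of the list was free of overlap between groups. Their log2 differences in MRL/lpr ran from -0.61 (Egr1) to 1.06 (Npas4), and Egr1 passed without MRL/lpr replicate 3. Of 8 temperature responsive genes, 2 fell in MRL/lpr (2.40% of all genes did), the cold-inducible RNA-binding protein gene Rbm3 (-0.83) and the heat shock gene Hspa1b (-1.02), and 1, Rbm3 (-0.61), fell in MRL/lpr+MSC (1.5% of all genes did). Both calls were lost in MRL/lpr without MRL/mpj replicate 1, MRL/mpj replicate 3 or MRL/lpr replicate 1. Rbm3 was also lost there without MRL/mpj replicate 2 and Hspa1b without MRL/lpr replicate 2 or 3. Rbm3 in MRL/lpr+MSC was lost without MRL/mpj replicate 1 or 3. In the same comparison Hspa1a (1.03 with all libraries, adjusted p = 0.0540, limma voom) passed on the higher side when MRL/mpj replicate 2 or MRL/lpr+MSC replicate 1 was dropped, and Hspa1b on the lower side when MRL/mpj replicate 2 was dropped.

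Among 11868 other genes that averaged 5 CPM or more, those whose profile over the 9 libraries was most like that of Dbp were Fam173b, Nsun3, Gm42741, Pccb and Hebp1. The measure was the root mean square difference of centred log2 CPM, which ran from 0.119 (Fam173b) to 0.154 (Hebp1) against a root mean square of 0.593 for the profile of Dbp itself. The nearest genes to Arntl were Gstm1 (0.0719), Traf4 (0.0792), Nr3c1 (0.0814), Bahcc1 (0.0858) and Hsdl2 (0.0861), against 0.235 for Arntl itself. None of these 10 nearest genes is a member of the clock list, and a profile over 9 libraries in 3 groups is dominated by the group difference.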

How the data were processed

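Hippocampal poly(A) RNA-seq libraries (3 per group) were compared. The authors counted reads per gene and deposited 1 table of raw counts for all libraries, and the authors also deposited FPKM values per library, computed from gene length and read count. The study's text names STAR and HTSeq with a GRCm38 annotation, the submitters' processing notes name TopHat2 and GRCm38, and the strand setting is not given in the sources used here. Each FPKM column was checked to match its own count column. Symbols were taken from GENCODE for 47224 of 47643 identifiers.

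The planned count test was replaced by limma voom (R 4.3.3, limma 3.58.1, robust empirical Bayes), because the separator of the count table prevented its unit from being registered as counts. Genes needed at least 10 counts, scaled to the median library, in 3 libraries and 15 in all. Scaling was by TMM with trims of 30% and 5%. Each comparison was fitted on its own 6 libraries and adjusted over all genes tested. Fold changes are group differences of fitted log2 CPM. Deposited counts set the depth, and intervals and the floor cover counting or library error only. Likeness used log2 CPM with a prior count of 1. The procedure was tested on simulated counts with 200 changed genes in each comparison. It recovered 176, 190 and 189 of them, in the order of the comparisons above, and called 8, 10 and 10 other genes. The simulation had the same dispersion for all genes and no outlying library, so it does not cover the spread between the real libraries.

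The 10 genes and all lists were chosen with earlier results of these data known. Named genes were the 10, the genes of the clock list (2 genes first put on it are not reported here and are in none of its counts), the 5 genes most like Dbp and like Arntl, and the extremes of the other lists. Alternatives were other size factors, no filter, a filter of 1 CPM in 3 libraries, all 9 libraries in 1 fit, the replicate number as a block, each library left out and, chosen after seeing the data, limma-trend. Deviations of same-numbered libraries from their group means correlated at r from -0.21 to 0.35. For replicates 2 and 3 this r was above the highest r with another number in each comparison, and for replicate 1 below it. The labels name no pairs, and the numbers were not taken as pairs. No column lacked a sample.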

Additional observations from a re-analysis of the deposited data

How the results depend on the processing

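The log2 fold changes of the 8 outputs were negative against MRL/mpj in all 12 alternatives, which were other size factors, no filter, a stricter filter, all 9 libraries in 1 fit, the replicate block, limma-trend and each of 6 libraries left out. The choice of these genes largely fixes that direction. With a library left out, the count of genes called ranged from 165 to 1693 in MRL/lpr against MRL/mpj (969 with all) and from 193 to 1512 in MRL/lpr+MSC against MRL/mpj (553 with all). The count among the 10 clock genes in MRL/lpr ranged from 1 to 5 (3 with all) and in MRL/lpr+MSC from 2 to 4 (3 with all), and that among the 17 other clock genes from 2 to 3 in MRL/lpr (3 with all), while it was 1 in MRL/lpr+MSC in each fit. The median of the 8 outputs ranged from -0.72 to -0.58 in MRL/lpr and from -0.64 to -0.44 in MRL/lpr+MSC. The cause of these shifts was not tested. With the replicate number as a block, 1335 genes were called in MRL/lpr and 280 in MRL/lpr+MSC, where 2 of the 10 clock genes passed. The labels name no pairs, so this block has no stated basis in the design. Same-number correlations in MRL/lpr against MRL/mpj were -0.02, 0.20 and 0.08 for replicates 1, 2 and 3. limma-trend called 1333 and 612 genes, and no alternative called a gene in MRL/lpr+MSC against MRL/lpr. DESeq2 was not run.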
